A study of Homo sapiens with 15 samples.

Results

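Complex I (NADH:ubiquinone oxidoreductase) is described here through its nuclear genes, in A2058 cells, an established human melanoma line, after 8 h with NP, metformin or phenformin. The members were all protein-coding genes whose symbol starts with NDUF, joined to array probes through the RefSeq accession that the array gives for each probe. The rule found 46 genes, of which 44 with a probe that passed the filter on dim probes are described, out of 26823 features tested in the series. These were 36 structural subunits and 8 assembly factors (NDUFAF1 to NDUFAF8). No probe was joined to NDUFC2-KCTD14. All 44 genes were above background on all 15 arrays and had a value on each of them.

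The 5 groups each held 3 arrays. NP was given at 3 μM with DMSO alone as its vehicle control, metformin (MET) at 5 mM and phenformin (PHEN) at 50 μM with water (W) as theirs, and all cultures were grown in EMEM with 10% FBS. The labels number the replicates without saying whether they were separate cultures, and the methods of the study call them biological replicates. The labels call the first compound NP and the series title names neopetasin, whereas the methods of the study give petasin for this cell line, dose and time. Which of the names applies cannot be read from array values, so the label NP is kept here. Levels are log2 intensities relative to the 75th percentile of each array, and a fold change is the treated minus the vehicle level on that scale.

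Complex I takes electrons from NADH and passes them through flavin and iron-sulfur clusters to ubiquinone, and it pumps protons across the inner mitochondrial membrane. It has an N module that oxidizes NADH, a Q module that reduces ubiquinone, and a membrane arm with a proximal and a distal part. The core subunits carry out catalysis, supernumerary subunits surround them, and assembly factors build the enzyme but are absent from the finished complex. Metformin and phenformin are related biguanides and known inhibitors of this enzyme, so the arrays address whether the mRNAs of the enzyme and of its assembly factors change while cells are exposed to them. The mitochondrial genome encodes the remaining core subunits, which were not analysed here.

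Promoter windows from RefSeq (GRCh38.p14, 250 bases before to 50 bases after each gene start) were found for 39 of the 44 genes. NDUFC2, NDUFS5, NDUFB5, NDUFB9 and NDUFAF6 had no entry. Windows were searched on both strands for letters that name well-known activators of mitochondrial genes. The letters GCATGCGC, from the motif of nuclear respiratory factor NRF1, stood in the windows of 6 of 32 subunits (NDUFA5, NDUFA6, NDUFA8, NDUFB4, NDUFS6 and NDUFS7) and 2 of 7 assembly factors (NDUFAF4 and NDUFAF5), and in 3.05% of all 35116 windows and those of 4.89% of protein-coding genes. Of these, 4 promoters are printed. NDUFB4, NDUFA8 and NDUFAF5 hold overlapping matches on both strands, and NDUFS7 had the highest fold change of any member with phenformin. Each runs 5′ to 3′ on the strand of its gene, from 250 bases before the gene start to the start or to the end of a match that spans it. Matches, in either orientation, are in capitals.
NDUFB4 (chr3:120596086-120596335, plus strand): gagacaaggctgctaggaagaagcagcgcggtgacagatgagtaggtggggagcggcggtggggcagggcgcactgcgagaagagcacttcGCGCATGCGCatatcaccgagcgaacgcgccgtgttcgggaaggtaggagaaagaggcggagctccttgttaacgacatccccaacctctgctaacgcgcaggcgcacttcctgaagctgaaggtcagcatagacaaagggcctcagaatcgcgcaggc
NDUFA8 (chr9:122159774-122160029, minus strand): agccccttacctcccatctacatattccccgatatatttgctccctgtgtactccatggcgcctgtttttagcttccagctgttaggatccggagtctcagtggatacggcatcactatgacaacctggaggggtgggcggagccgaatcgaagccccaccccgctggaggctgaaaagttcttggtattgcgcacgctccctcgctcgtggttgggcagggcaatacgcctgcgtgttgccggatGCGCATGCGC
NDUFAF5 (chr20:13784778-13785033, plus strand): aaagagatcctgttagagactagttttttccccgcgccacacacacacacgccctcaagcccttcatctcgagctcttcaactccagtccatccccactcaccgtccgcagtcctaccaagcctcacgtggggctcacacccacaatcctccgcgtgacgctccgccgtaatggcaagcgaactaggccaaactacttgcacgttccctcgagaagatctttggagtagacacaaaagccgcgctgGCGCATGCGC
NDUFS7 (chr19:1383657-1383906, plus strand): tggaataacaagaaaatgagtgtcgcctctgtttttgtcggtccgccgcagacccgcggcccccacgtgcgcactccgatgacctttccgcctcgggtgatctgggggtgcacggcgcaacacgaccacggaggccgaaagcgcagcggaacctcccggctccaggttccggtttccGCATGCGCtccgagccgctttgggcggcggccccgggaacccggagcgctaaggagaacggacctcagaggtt

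The ETS motif CCGGAAG stood in those of 5 subunits (NDUFA1, NDUFA13, NDUFB7, NDUFS1 and NDUFS3) and 2 assembly factors (NDUFAF4 and NDUFAF8), and in 10.3% of all windows and those of 16.5% of protein-coding genes. The YY1 motif AAGATGGCG stood in those of 6 subunits (NDUFA6, NDUFA7, NDUFA9, NDUFB8, NDUFS4 and NDUFS7) and of NDUFAF8, each time after the gene start, and in 1.75% of all windows and those of 3.21% of protein-coding genes. The SP1 motif GGGCGG stood in those of 21 subunits and 4 assembly factors, and in 45% of all windows and those of 64.3% of protein-coding genes, a share close to that of the members. TGATGCAA, the composite element of C/EBP and ATF proteins, stood in 0.866% of all windows, in those of 0.903% of protein-coding genes and in none of the members' windows. Matches of different motifs overlapped in 1 member (ETS and SP1 in NDUFS3). A match is a description of these letters only.

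Between 25798 and 45005 of 58201 probes were well above background on an array. The DMSO and NP arrays had 25798 to 31922 such probes and the W, MET and PHEN arrays 31406 to 45005. The arrays lay on 4 slides, 2 of which held only DMSO and NP arrays and 2 only W, MET and PHEN arrays, so that vehicle set and slide cannot be told apart. Of 8 markers of the melanocyte lineage, 7 were above background on every array and TYR was above it on 13, and of 16 markers of other cell types 8 were above it on every array and 4 on none. Replicate numbers paired the arrays within each vehicle set (correlation of deviations 0.22 to 0.86 over 12 pairs) but not across them (-0.19 to 0.23 over 18 pairs). The methods of the study pair the replicates and name DMSO as the comparator of all 3 compounds. Here the replicate number was a block over all 15 arrays, which also joins arrays across the vehicle sets, and the biguanides were compared with the water arrays that the labels give.

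Complex I mRNAs stayed close to their vehicle level with all 3 compounds. The fold changes of the 44 genes lay between -0.16 and 0.12 with NP, between -0.17 and 0.15 with metformin and between -0.08 and 0.18 with phenformin, with standard errors of 0.09 to 0.23. On the linear scale the outermost values were 0.889 and 1.13 times the vehicle. No member was called in any of the 3 comparisons by limma's test with Benjamini-Hochberg adjustment, where a call (a DEG) needed both a 1.5-fold difference in either direction and an adjusted p no higher than 0.05. That rule called 0.0373% of all features with NP, 0% with metformin and 0.0261% with phenformin. No member reached an unadjusted p of 0.05 either, where 4.69%, 2.46% and 2.35% of all features did. The smallest unadjusted p was 0.154 for NDUFA2 with NP, 0.209 for NDUFS8 with metformin and 0.159 for NDUFS7 with phenformin, and every adjusted p was at least 0.9999.

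In each comparison the 95% interval of all 44 members lay within a 1.5-fold change in either direction. The same held for 53.4% of all features with NP, 53.0% with metformin and 55.2% with phenformin. At the median, the interval reached 0.25 to either side of the fold change over the members and 0.42 over all features. The members had a brighter signal than most features. The lowest level of any member on any array was 1.94, where the array medians over all features lay between -0.51 and -0.41. Whether the narrower intervals went with the brighter signal was not tested. The outermost bounds belonged to NDUFAF6, the member with the largest standard error, at -0.58 with metformin and 0.47 with NP.

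**Figure D1:**
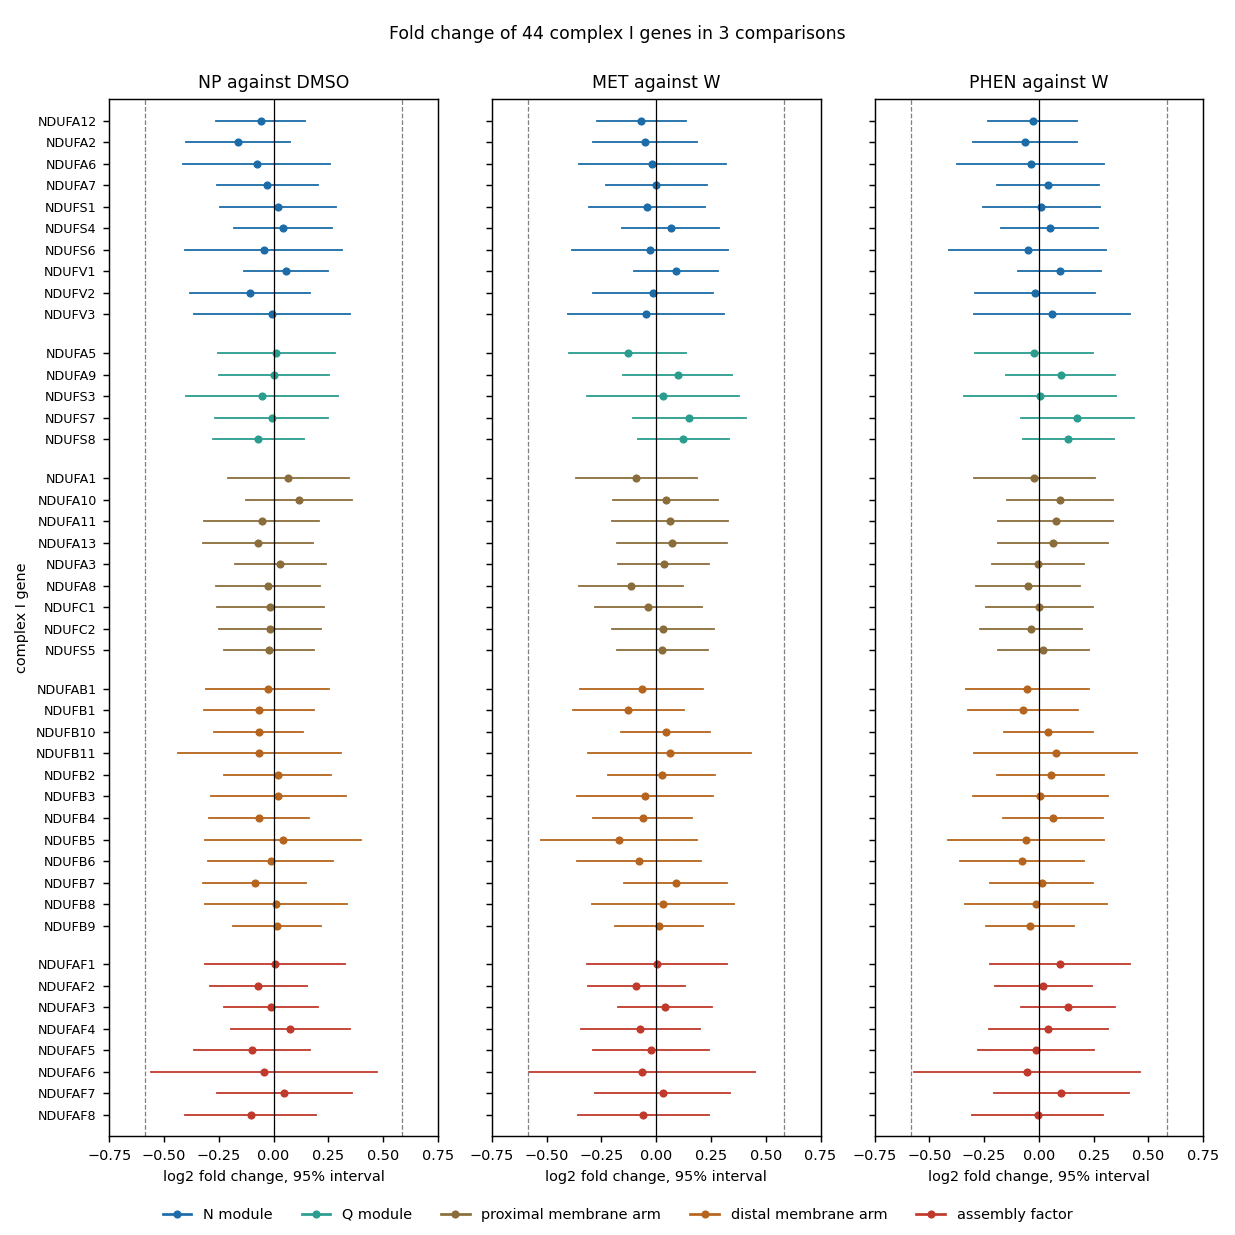
Log2 fold change of each complex I gene (point) with its 95% interval (line) from the fit over 15 arrays, for NP against DMSO, metformin against water and phenformin against water. Genes are grouped and coloured by module, and dashed lines mark a 1.5-fold change in either direction. All 44 points lie between -0.17 and 0.18 and all intervals lie inside the dashed lines.

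With NP, the subunits had a median fold change of -0.02 and the assembly factors one of -0.03, beside -0.01 over all features. Of the 36 subunits 13 lay above and 23 below 0, and of the 8 assembly factors 3 above and 5 below. Below 0 lay 53.8% of all features. By module the medians were -0.04 for 10 N module genes, -0.01 for 5 Q module genes, and -0.02 for both the 9 proximal and the 12 distal membrane arm genes.

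In the N module, the core subunit NDUFV1 binds NADH and the flavin that accepts its electrons. It measured 6.21, 6.22 and 6.25 on the DMSO arrays and 6.29, 6.29 and 6.28 on the NP arrays. All 3 NP arrays lay above all 3 DMSO arrays, by a fold change of 0.06 (95% interval -0.13 to 0.25). NDUFV2, an iron-sulfur subunit beside it, measured 6.61, 6.48 and 6.82 with DMSO and 6.37, 6.49 and 6.72 with NP, and the groups overlapped (-0.11 (95% interval -0.38 to 0.17)). NDUFS1, the largest subunit and a carrier of iron-sulfur clusters, measured 5.65, 5.50 and 5.97 with DMSO and 5.57, 5.64 and 5.98 with NP. It differed by 0.02 (95% interval -0.24 to 0.29), less than the spread between the arrays of a group.

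In the Q module, NDUFS7 holds the last iron-sulfur cluster, beside the ubiquinone site. It measured 3.29, 3.27 and 3.67 with DMSO and 3.29, 3.36 and 3.56 with NP, a fold change of -0.01 (95% interval -0.27 to 0.25), and the groups overlapped. NDUFS3, a core subunit without a cluster, measured 5.33, 5.15 and 5.63 with DMSO and 5.17, 5.24 and 5.56 with NP (-0.05 (95% interval -0.40 to 0.29)). NDUFS8, which carries iron-sulfur clusters, measured 5.94, 5.78 and 5.87 with DMSO and 5.77, 5.81 and 5.81 with NP (-0.07 (95% interval -0.28 to 0.14)). Over these 6 core subunits the median was -0.03, with 2 above 0 and 4 below.

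Among the other subunits, 1 was higher and 7 were lower with NP in all 3 pairs of arrays that share a replicate number. The higher one was NDUFA10, a supernumerary subunit of the proximal membrane arm, with 5.17, 5.13 and 5.31 on the DMSO arrays and 5.19, 5.18 and 5.59 on the NP arrays. Its pair differences were 0.02, 0.05 and 0.28, so that most of its fold change of 0.12 (95% interval -0.13 to 0.36) came from pair 3. NDUFA2, an N module subunit with a thioredoxin-like fold, had the lowest fold change. It measured 6.05, 5.81 and 6.10 with DMSO and 5.84, 5.67 and 5.96 with NP, with pair differences of -0.21, -0.14 and -0.15 and a fold change of -0.16 (95% interval -0.40 to 0.07). NDUFB7 of the distal membrane arm measured 4.77, 4.67 and 4.94 and 4.70, 4.65 and 4.77, a fold change of -0.09 (95% interval -0.32 to 0.15). NDUFA6, which binds the mitochondrial acyl carrier protein, measured 5.88, 5.88 and 5.52 and 5.84, 5.84 and 5.38, a fold change of -0.08 (95% interval -0.41 to 0.26). The DMSO and NP arrays overlapped for all of these. Counted over all members, 3 were higher and 8 lower in all 3 pairs, where 14.3% and 18.9% of all features were, and 2 (NDUFV1 and NDUFAF4) had NP arrays wholly above the DMSO arrays, where 3.02% of all features had, and none had them wholly below, where 3.42% had. The methods' t-test, a paired test on each gene alone (run here against water for the biguanides), gave an unadjusted p of at most 0.05 for 4 members, all lower with NP, where 7.60% of all features passed. They were NDUFA2, NDUFB1, NDUFB11 and NDUFAF8, and none passed after adjustment (adjusted p of 0.630 to 0.652).

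The assembly factors were measured at the following levels with DMSO and NP. NDUFAF1, which works with ECSIT and ACAD9 on the membrane arm, measured 3.24, 3.1 and 3.48 with DMSO and 3.21, 3.19 and 3.44 with NP, a fold change of 0.01. NDUFAF2, a paralogue of NDUFA12 that acts late, measured 3.92, 3.82 and 4.00 and 3.82, 3.83 and 3.88, a fold change of -0.07. Neither gene separated the groups. NDUFAF3 and NDUFAF4 act together on the Q module. NDUFAF3 measured 6.43, 6.39 and 6.62 and 6.35, 6.41 and 6.65, a fold change of -0.01. NDUFAF4 measured 3.45, 3.48 and 3.49 and 3.49, 3.59 and 3.56. All 3 NP arrays lay above all 3 DMSO arrays, although the nearest values are equal after rounding, by 0.08 (95% interval -0.19 to 0.35). NDUFAF5 hydroxylates an arginine of NDUFS7, NDUFAF7 is a methyltransferase, and NDUFAF8 stabilizes NDUFAF5. NDUFAF5 measured 3.12, 2.94 and 3.06 and 2.89, 2.87 and 3.07, a fold change of -0.10. NDUFAF7 measured 3.75, 3.41 and 3.79 and 3.74, 3.55 and 3.81, a fold change of 0.05. NDUFAF8 measured 6.52, 6.46 and 6.19 and 6.38, 6.36 and 6.13, was lower in all 3 pairs and had a fold change of -0.10 (95% interval -0.40 to 0.19). NDUFAF6, a Q module factor, measured 2.27, 2.02 and 2.76 and 2.13, 1.94 and 2.85, the widest spread of any member in these groups (SD 0.38 and 0.48, n = 3 each).

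With metformin, the subunits had a median fold change of 0.01, with 19 above and 17 below 0, and the assembly factors one of -0.04, with 3 above and 5 below. The median over all features was 0.00, and 51.0% of them lay above 0. The Q module had the highest median of the modules at 0.10, with 4 of 5 genes above 0. Within the 3 pairs its median was 0.08, -0.02 and 0.23. The N module had -0.02 with 3 of 10 above 0, the proximal membrane arm 0.03 with 6 of 9, and the distal membrane arm -0.02 with 6 of 12. Of these genes none passed the test.

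In the Q module, NDUFS7 measured 3.69, 3.83 and 3.61 on the W arrays and 3.77, 3.92 and 3.88 on the MET arrays. It was higher in all 3 pairs, by 0.08, 0.09 and 0.28, yet the groups overlapped and the fold change was 0.15 (95% interval -0.11 to 0.41). NDUFS8 measured 6.05, 6.25 and 6.05 with water and 6.17, 6.28 and 6.28 with metformin, likewise higher in all 3 pairs (0.12 (95% interval -0.08 to 0.33)). NDUFS3 measured 5.71, 5.96 and 5.70 and 5.79, 5.92 and 5.74 and did not keep one direction (0.03 (95% interval -0.32 to 0.38)). In the N module, NDUFV1 measured 6.66, 6.83 and 6.75 and 6.79, 6.78 and 6.94 (0.09 (95% interval -0.10 to 0.28)). NDUFV2 measured 6.71, 7.0 and 6.96 and 6.75, 6.95 and 6.92 (-0.01 (95% interval -0.29 to 0.26)), and NDUFS1 measured 5.58, 5.80 and 5.79 and 5.59, 5.72 and 5.74 (-0.04 (95% interval -0.31 to 0.22)). The W and MET arrays overlapped for each of these core subunits, whose median was 0.06.

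Among the other subunits, 1 was higher and 7 were lower in all 3 pairs. NDUFA11 of the proximal membrane arm measured 6.72, 6.94 and 6.90 with water and 6.85, 6.97 and 6.92 with metformin, a fold change of 0.06 (95% interval -0.20 to 0.33). NDUFB5 of the distal membrane arm had the lowest fold change of the set. It measured 5.24, 5.61 and 5.90 and 5.23, 5.48 and 5.54, with pair differences of -0.01, -0.13 and -0.37 that ran from near 0 to the lowest value of any member in these pairs, and a fold change of -0.17 (95% interval -0.53 to 0.19). NDUFA5 of the Q module measured 4.57, 4.90 and 5.08 and 4.47, 4.80 and 4.89 (-0.13 (95% interval -0.40 to 0.14)). NDUFB1 of the distal membrane arm measured 6.53, 6.81 and 6.92 and 6.50, 6.63 and 6.75 (-0.13 (95% interval -0.38 to 0.12)). The groups overlapped for all of these. Over all members, 3 were higher and 8 lower in all 3 pairs, where 22.2% and 20.3% of all features were, and no member had groups that did not overlap, where 3.48% of all features lay wholly higher and 2.28% wholly lower. The methods' t-test gave 1 member an unadjusted p of at most 0.05, where 11.7% of all features passed. This was NDUFB4 of the distal membrane arm, which measured 6.87, 7.14 and 7.25 with water and 6.82, 7.08 and 7.18 with metformin at a fold change of -0.06, and it did not pass after adjustment (the methods' t-test, adjusted p = 0.379).

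With phenformin, the subunits had a median fold change of 0.01, with 20 above and 16 below 0, and the assembly factors one of 0.03, with 5 above and 3 below, beside -0.03 over all features, of which 40.5% lay above 0. The Q module again had 4 of 5 genes above 0, and a median of 0.10. Within the 3 pairs its median was 0.21, -0.03 and 0.10. The N module, the proximal and the distal membrane arm had medians of 0.00, with 5 of 10, 5 of 9 and 6 of 12 genes above 0. Metformin and phenformin share their W arrays, and their doses differ, so that their values are given side by side and not compared.

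NDUFS7 had the highest fold change of any member. It measured 3.82, 3.90 and 3.93 on the PHEN arrays, was higher than its W partner in all 3 pairs, by 0.13, 0.07 and 0.33, and had a fold change of 0.18 (95% interval -0.08 to 0.43). With the replicate block set within each vehicle set, NDUFS7 was the 1 member with an unadjusted p of at most 0.05 (limma, adjusted p = 0.684), where 7.10% of all features passed. NDUFS8 measured 6.26, 6.29 and 6.21, higher in all 3 pairs as well (0.13 (95% interval -0.07 to 0.34)). NDUFS3 measured 5.86, 5.87 and 5.64 (0.00 (95% interval -0.34 to 0.35)), with pairs in both directions. In the N module, NDUFV1 measured 6.78, 6.81 and 6.93 (0.09 (95% interval -0.10 to 0.28)), NDUFV2 6.92, 6.93 and 6.75 (-0.02 (95% interval -0.29 to 0.25)) and NDUFS1 5.71, 5.78 and 5.72 (0.01 (95% interval -0.25 to 0.28)). The PHEN and W arrays overlapped for each of the 6 core subunits.

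Among the other subunits, NDUFA10 and NDUFA13 were higher in all 3 pairs and none was lower in all 3. NDUFA10 measured 5.30, 5.44 and 5.41 with water and 5.54, 5.47 and 5.44 with phenformin. It was the 1 member whose groups did not overlap, where 3.83% of all features lay wholly higher and 4.31% wholly lower, with a fold change of 0.10 (95% interval -0.14 to 0.34). NDUFA13, also known as GRIM-19, measured 6.14, 6.30 and 6.13 and 6.22, 6.33 and 6.22, a fold change of 0.06 (95% interval -0.19 to 0.32). Over all members, 5 were higher and 0 lower in all 3 pairs, where 12.2% and 14.8% of all features were. Besides the subunits named, NDUFAF3 was among those 5. The methods' t-test gave an unadjusted p of at most 0.05 for 0 members, where 5.22% of all features passed.

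The assembly factors had the following levels on the water set of arrays. NDUFAF3 measured 6.66, 6.92 and 6.88 with water, 6.78, 6.86 and 6.94 with metformin and 6.90, 7.01 and 6.94 with phenformin. Its fold change was 0.04 with metformin and 0.13 (95% interval -0.08 to 0.35) with phenformin, the highest of the assembly factors in both. NDUFAF1 measured 3.18, 3.51 and 3.4, 3.29, 3.47 and 3.33 and 3.53, 3.59 and 3.25 in the same order, with fold changes of 0.00 and 0.10. NDUFAF2 measured 4.25, 4.35 and 4.18, 4.22, 4.26 and 4.02 and 4.31, 4.32 and 4.20, was lower in all 3 pairs with metformin, and had fold changes of -0.09 and 0.02. All 3 groups overlapped for these genes. NDUFAF4 measured 3.38, 3.87 and 3.71, 3.53, 3.71 and 3.51 and 3.72, 3.90 and 3.47, with fold changes of -0.07 and 0.04. NDUFAF5 measured 2.77, 3.13 and 3.17, 2.91, 3.03 and 3.06 and 3.06, 3.04 and 2.93, with fold changes of -0.02 and -0.01. The first W array was the lowest of the 3 W arrays for both. NDUFAF6 measured 2.47, 2.46 and 2.48, 2.44, 2.50 and 2.26 and 2.55, 2.51 and 2.19, with fold changes of -0.06 and -0.05. NDUFAF7 measured 3.61, 3.92 and 3.99, 3.73, 3.94 and 3.94 and 3.96, 4.02 and 3.85, with fold changes of 0.03 and 0.10. NDUFAF8 measured 6.43, 6.68 and 6.80, 6.48, 6.59 and 6.67 and 6.69, 6.63 and 6.57, with fold changes of -0.06 and -0.01. None of these passed the test.

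The members with overlapping NRF1 letters in the printed promoters were close to their vehicle level too. NDUFB4 measured 7.21, 7.20 and 7.31 with DMSO and 7.14, 7.07 and 7.30 with NP. Its fold changes were -0.07 with NP, -0.06 with metformin and 0.06 with phenformin, those of NDUFA8 were -0.03, -0.12 and -0.05, and those of NDUFAF5 were -0.10, -0.02 and -0.01. In the limma fit the 95% interval of each of these fold changes held values of both signs. That of NDUFA8 with metformin was larger in size than its standard error of 0.11. By the methods' t-test NDUFB4 with metformin had an unadjusted p of 0.0112, and it did not pass after adjustment (adjusted p = 0.379). NDUFS7, whose promoter is printed with theirs, had fold changes of -0.01, 0.15 and 0.18, as given above.

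Subunits and assembly factors were set against each other within each comparison. With NP the median of the subunits exceeded that of the assembly factors by 0.01, and within the 3 pairs by 0.03, 0.01 and -0.03. With metformin the difference was 0.05, and -0.03, 0.02 and 0.07 within pairs. With phenformin it was -0.03, and -0.08, -0.08 and 0.05 within pairs. In every comparison the pairs disagreed in sign, and the SD of the pair differences was 0.03, 0.05 and 0.07 (n = 3 pairs each). No difference between the 2 kinds of genes was therefore seen beyond the spread of the pairs.

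A common movement of the members was seen within single pairs of arrays, most of all with phenformin. In pair 1 of phenformin all 36 subunits and all 8 assembly factors lay above water, with medians of 0.20 and 0.28. In pair 3 only 8 subunits and 2 assembly factors did, with medians of -0.14 and -0.19, and pair 2 had medians of -0.04 and 0.04. Over all features the medians of the 3 pairs were -0.02, -0.03 and -0.01, with 47.9%, 42.9% and 48.3% above 0. The 13 other assembly genes described below had phenformin pair medians of 0.22, 0.00 and -0.12, with 12, 7 and 2 of them above 0. With metformin 10, 3 and 7 of them did, at medians of 0.06, -0.04 and 0.01. With phenformin the movement was therefore not particular to the members. Metformin, against the same W arrays, had subunit medians of 0.09, -0.06 and -0.05 and assembly factor medians of 0.12, -0.08 and -0.12. NP against DMSO had subunit medians of -0.06, 0.03 and -0.02 and assembly factor medians of -0.09, 0.01 and 0.01. In the metformin pairs 29, 4 and 12 of 36 subunits lay above 0, where 57.6%, 46.8% and 48.1% of all features did. In the NP pairs 6, 24 and 15 did, where 44.7%, 49.2% and 47.8% of all features did. Over all features the pair medians were 0.04, -0.02 and -0.01 with metformin and -0.03, -0.004 and -0.01 with NP. The SD of the subunit medians over pairs was 0.18 with phenformin, 0.08 with metformin and 0.05 with NP. The sign of the phenformin median depended on which replicate was left out. Without replicate 3 it was 0.08 for the subunits, with 35 of 36 above 0, and without replicate 1 it was -0.08, with 8 above 0.

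**Figure D2:**
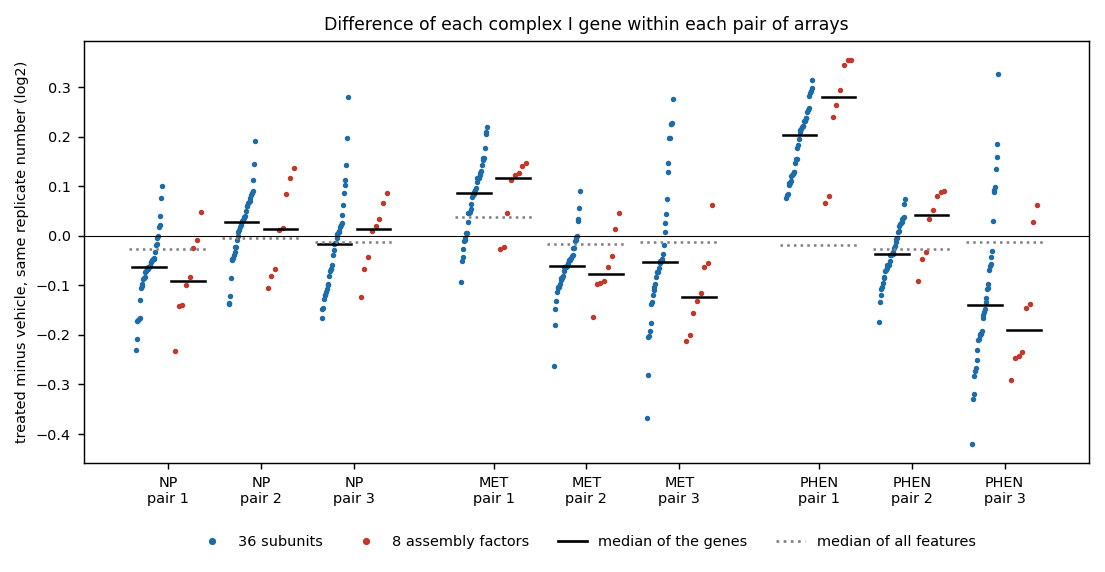
Difference in log2 level between the treated and the vehicle array of the same replicate number, for 36 subunits (blue) and 8 assembly factors (red), in each pair of the 3 comparisons. Black bars are medians of the genes and dotted lines medians of all features. With phenformin all 44 genes lie above 0 in pair 1, and 10 do in pair 3.

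Levels are also given by array. The median of the subunits was 6.15, 6.0 and 6.20 on the DMSO arrays and 6.06, 6.03 and 6.19 on the NP arrays. It was 6.13, 6.38 and 6.27 with water, 6.20, 6.32 and 6.35 with metformin and 6.27, 6.33 and 6.25 with phenformin. The first W array was the lowest of its vehicle set. The assembly factors gave 3.60, 3.45 and 3.64 with DMSO and 3.62, 3.57 and 3.69 with NP. They gave 3.49, 3.90 and 3.85 with water, 3.63, 3.82 and 3.73 with metformin and 3.84, 3.96 and 3.66 with phenformin. The first W array was again the lowest of the water set. Levels of different probes are not comparable, so the distance between the medians of the 2 kinds of genes has no meaning here. Over single members, the SD within a group of 3 arrays had a median of 0.14 with DMSO, 0.13 with NP and 0.15 with water. It was 0.09 with metformin and 0.06 with phenformin. Over all features these medians were 0.26, 0.26, 0.22, 0.21 and 0.13, and most features had a dimmer signal than the members.

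**Figure D3:**
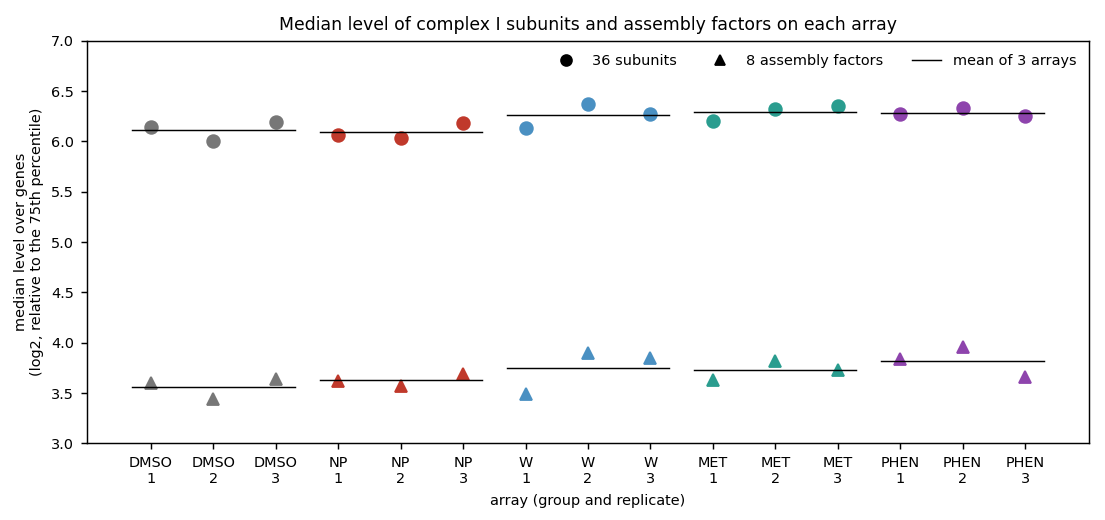
Median log2 level of 36 subunits (circles) and 8 assembly factors (triangles) on each of the 15 arrays, relative to the 75th percentile of the array, with lines for the mean of the 3 arrays of a group. Subunit medians run from 6.0 on the second DMSO array to 6.38 on the second W array, and only values of the same symbol can be compared.

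The effect of NP was also tested against that of each biguanide, each relative to its own vehicle. No member passed, with adjusted or unadjusted p of at most 0.05, where 2.78% of all features had such an unadjusted p for NP minus metformin and 2.43% for NP minus phenformin. After adjustment 0 of all features passed in either test. The differences over the members ran from -0.19 (NDUFS8) to 0.21 (NDUFB5) for metformin and from -0.20 (NDUFS8) to 0.10 (NDUFB5) for phenformin. The outermost interval bounds were -0.71 and 0.75, and -0.72 and 0.74. The doses of the compounds differ, and the vehicle sets lay on different slides.

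The DMSO and water arrays, which lay on different slides, differed more in these genes than any compound did from its own vehicle. The same held over all features, of which 10.6% were called between the vehicles and at most 0.0373% with a compound. Against water, the DMSO arrays had a subunit median of -0.21, with 30 of 36 below 0, and an assembly factor median of -0.18, with 7 of 8 below. The median over all features was -0.12, with 61.4% below 0. By replicate number, which does not pair arrays across the vehicle sets, the subunit medians were -0.03, -0.37 and -0.14. The assembly factors had 0.06, -0.42 and -0.19, and all features -0.16, -0.13 and -0.09. Without replicate 2 the medians were -0.10 for subunits and -0.05 for assembly factors, beside -0.11 over all features. At an adjusted p of at most 0.05, 4 members were lower with DMSO, where 12.0% of all features were, and 0 were higher, where 5.15% were. At an unadjusted p of at most 0.05, 11 members were lower, where 23.1% of all features were. The count of 4 depended on the fit. With a block within each vehicle set 14 members passed, where 38.9% of all features did. With normexp 10 did, where 13.5% of all features did. In a fit of these 2 groups alone and by the methods' t-test none did, where 0% and 0.0150% of all features did. In the fit over 15 arrays none reached a 1.5-fold difference, while 10.6% of all features did so and passed the test. With quantile normalization the subunit median was -0.05, with 21 below 0, and 2 members passed, where 15.8% of all features did. NDUFV1 (-0.38) was lower with DMSO there, and NDUFB4 was higher (0.32, limma, adjusted p = 0.0382).

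The 4 members were the core subunit NDUFV1, the proximal membrane arm subunit NDUFA8, and the assembly factors NDUFAF2 and NDUFAF3. NDUFV1 measured 6.21, 6.22 and 6.25 with DMSO and 6.66, 6.83 and 6.75 with water, as given above, a fold change of -0.52 (95% interval -0.71 to -0.33) with an adjusted p of 0.0062 by limma. The NP arrays lay with the DMSO arrays, and the MET and PHEN arrays with the W arrays. NDUFA8 measured 6.67, 6.79 and 6.77 with DMSO and 6.71, 6.77 and 6.67 with NP, against 6.93, 7.27 and 7.32 with water, 6.98, 7.15 and 7.04 with metformin and 7.17, 7.20 and 7.01 with phenformin. Its fold change between the vehicles was -0.43 (95% interval -0.67 to -0.19) (limma, adjusted p = 0.0246). NDUFAF2 had -0.35 (95% interval -0.57 to -0.13) (limma, adjusted p = 0.0393) and NDUFAF3 -0.34 (95% interval -0.55 to -0.12) (adjusted p = 0.0387). Whether vehicle or slide set these differences cannot be told apart. A second probe of NDUFAF2 had a fold change of 0.07 between the vehicles, opposite in sign to its fitted probe. With the mean of a gene's probes 4 members passed, where 17.6% of all features did. NDUFA10 was then among them in place of NDUFAF2. No member passed when replicate 1 or replicate 2 was left out, where 0 of all features passed as well. Without replicate 3, 7 members passed, where 27.7% of all features did.

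**Figure D4:**
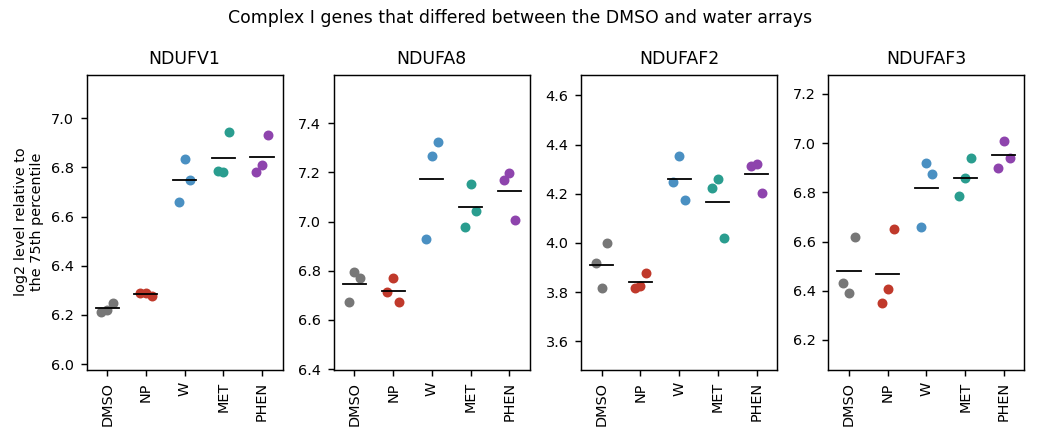
Log2 level of the 4 complex I genes with an adjusted p of at most 0.05 between the DMSO and water arrays, on each of the 15 arrays (points) with group means (bars), relative to the 75th percentile of the array. All vertical axes span the same range. For NDUFV1 the DMSO and NP arrays lie between 6.21 and 6.29 and the W, MET and PHEN arrays between 6.66 and 6.94.

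With DMSO in place of water as the comparator of the biguanides, metformin had a subunit median of 0.16 and an assembly factor median of 0.15, and phenformin 0.16 and 0.23. An unadjusted p of at most 0.05 was reached by 13 members with metformin, where 26.2% of all features were higher at that level, and by 13 with phenformin, where 20.8% were, all of them higher. The 1 member called was NDUFV1 in both, where 11.7% and 6.55% of all features were called higher, with a fold change of 0.61 (95% interval 0.42 to 0.80) and 0.61 (95% interval 0.42 to 0.80). These comparisons cross slides.

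For 10 members the arrays held a second probe. The fitted probe was the one with the higher mean, and the other probe had fold changes between -0.10 and 0.05 with NP, -0.28 and 0.24 with metformin and -0.22 and 0.19 with phenformin. The largest difference between the probes of a gene was 0.16 with NP (NDUFA10) and 0.31 and 0.18 with metformin and phenformin (both NDUFC2). Signs differed for 6 of the 10 genes with NP, and for 2 each with metformin and phenformin. For NDUFA10, which was higher in all 3 pairs with NP by its fitted probe, the second probe had a fold change of -0.04. For NDUFAF8, which was lower in all 3 pairs with NP by its fitted probe, it was 0.01.

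Of 14 other genes known to assist complex I assembly, 13 were measured. With NP 3 lay above and 10 below 0 (median -0.01), with metformin 6 above and 7 below (median -0.02), and with phenformin 10 above and 3 below (median 0.03). None passed after adjustment. FOXRED1, an oxidoreductase-like assembly factor, had the smallest unadjusted p, 0.0488 with metformin. Its pair differences were 0.18, 0.28 and 0.17 and its fold change 0.21 (95% interval 0.00 to 0.42) there, and 0.19 (95% interval -0.02 to 0.40) with phenformin. DMAC1, a factor of the distal membrane arm, had the lowest fold change in each comparison, -0.28 with NP, -0.41 (95% interval -0.85 to 0.03) with metformin and -0.39 (95% interval -0.83 to 0.05) with phenformin. It was lower in all 3 pairs with both biguanides, by -0.19, -0.56 and -0.49 with metformin and by -0.33, -0.38 and -0.46 with phenformin, while with NP its pair 3 alone gave -1.02. Both biguanides were compared with the same W arrays.

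NDUFA4 and NDUFA4L2 now carry other symbols (COXFA4 and COXFA4L2) and are outside the rule. NDUFA4, once counted as a complex I subunit and now as one of cytochrome c oxidase, had pair differences of -0.17, 0.02 and 0.06 with NP, 0.52, -0.03 and -0.12 with metformin and 0.77, 0.04 and -0.22 with phenformin. Its fold changes were -0.03 (95% interval -0.46 to 0.39), 0.13 (95% interval -0.30 to 0.55) and 0.20 (95% interval -0.23 to 0.62). Its first pair was the highest with both biguanides. NDUFA4L2 was above background on 1 array and was not tested.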

How the data were processed

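RNA of 15 samples was labeled with Cy3 and hybridized to single-color Agilent human arrays. The deposited intensities are the processed spot signals that the authors obtained with Agilent Feature Extraction (version 9.1 per the labels, 10.7.3.1 per the file headers), background-subtracted and not normalized between arrays. The authors also deposited a table of log2 values with 75th-percentile scaling and a floor of 4, used here as an alternative.

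Control spots and outlier spots (1853 of 913515 values) were left out, spots of a probe were averaged, log2 was taken, and each array was shifted by its 75th percentile. In at least 1 group, 32911 of 58201 probes exceeded background on all its 3 arrays, and these were kept. Of 33080 RefSeq probes 31104 matched a current symbol. The probe with the highest mean stood for its gene, giving 26823 features. Array probes were designed on another genome build than the symbol table, so no probe coordinates are given. The coordinates printed are those of the promoters.

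A linear model with group and replicate number was fitted over all 15 arrays (limma 3.58.1, R 4.3.3, empirical Bayes, two-sided, Benjamini-Hochberg over all features). Tables and figures were made with Python 3.11.15, pandas 2.3.3, numpy 2.4.6 and matplotlib 3.10.9. The fit was tested on simulated data in which all 5 groups shared the effect of the replicate number. Its outcome is not given here, and it does not cover replicate numbers that pair only within a vehicle set. The number of arrays limits the precision. No test was made over the members as a list. Of the genes found by the rule, 1 is not reported here.

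The members and gene lists were chosen with earlier results of these data known. Values are given array by array for 6 nuclear core subunits, the assembly factors, up to 3 other subunits with the largest rise and fall among those moving one way in all 3 pairs, members at an unadjusted p of at most 0.05, and NDUFA4. NDUFB4, NDUFA8, the choice of promoters to print and the genes in the comparison of vehicles were added after their values or promoters were seen. Alternatives tried were a fit with no replicate block, a term for slide, a block within each vehicle set, normexp (offset 50), quantile normalization, the authors' table, no filter or a stricter one, the mean of a gene's probes, only the groups compared, the methods' t-test, DMSO as comparator, NDUFA4 as a subunit, and each replicate left out. For DMSO against water, the methods' t-test and the fit of only these groups were added after the data were seen.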

Additional observations from a re-analysis of the deposited data

How the results depend on the processing

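Of 236 values recomputed under an alternative, 217 kept their place (a count within 1.5 times, a median within 1 SD of the pairs) and 19 moved. The methods' t-test entered this tally both with and without adjustment. With adjustment its counts of members were 0 in the 3 comparisons and were tallied as kept. Alternatives that change only the block, the slide term or the groups fitted cannot move the medians, and either filter left them the same. A wide spread of pairs also let values keep their place. The phenformin subunit median went from 0.01 to 0.16 with DMSO as the comparator and counted as kept, at an SD of 0.18. The replicate numbers pair arrays only within a vehicle set. With no replicate block 0 members were called in the 3 comparisons and 0 had an unadjusted p of at most 0.05. The medians were the same. For DMSO against water, 3 members passed with no replicate block in place of 4, where 2862 of all 26823 features did. With a block within each vehicle set, 1 member had an unadjusted p of at most 0.05 with phenformin, where 7.10% of all features did. That block let 14 members pass for DMSO against water, where 38.9% of all features did. The slide term also gave 1 member with phenformin, where 5.50% of all features had such a p. The slide term could not be fitted for DMSO against water. The methods' t-test at an unadjusted p gave 4 members with NP and 1 with metformin. With DMSO as the comparator, 1 member was called and 13 had an unadjusted p of at most 0.05 with either biguanide, and the metformin medians were 0.16 for subunits and 0.15 for assembly factors. For DMSO against water, 10 members passed with normexp, 2 with quantile normalization and 1 with no filter on dim probes. Of all features 13.5%, 15.8% and 4.89% passed there. In a fit of these 2 groups alone 0 members passed, and 0 by the methods' t-test after adjustment, where 0% and 0.0150% of all features did. Leaving out a replicate gave 0 to 7, where 0% to 27.7% of all features passed. The cause of these moves was not tested.

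Over the alternatives other than DMSO as the comparator, the fold changes of members ran from -0.18 to 0.17 with NP, from -0.25 to 0.18 with metformin and from -0.23 to 0.23 with phenformin, and 23, 26 and 9 of the 44 members kept one sign. Precision is limited by the 3 arrays a group, and the vehicle sets lay on separate slides.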
